A study of Mus musculus with 8 samples.

Results

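The small heat shock proteins and the co-chaperone *Bag3*, with a pair of HSP70 genes that work beside them, were described in gastrocnemius (GAS) muscle after knockdown of MYTHO (MYTHO-KD). The 10 genes were *Hspb1*, *Hspb2*, *Hspb3*, *Hspb6*, *Hspb7*, *Hspb8*, *Cryab*, *Bag3*, *Hspa8* and *Hspa1b*. They were taken by name from the symbol column of an array table with 22206 probe sets, a probe set being the group of short probes that measures a gene. Each gene had 1 probe set, and all 10 were marked by the authors' software as expressed in both groups, as were 21222 of all 22206 probe sets. Male C57/Bl6j mice received at 10 weeks an intramuscular adeno-associated virus (AAV). It carried, under a U6 promoter, a short hairpin RNA against the product of *D230025D16Rik*, the gene of MYTHO, or a scramble hairpin in the opposite leg as control. Total RNA was taken 3 months later, at an age of 22 weeks, and hybridized to Clariom S Mouse arrays, with 4 arrays for AAV sh-RNA MYTHO and 4 for AAV sh-RNA scramble. All groups therefore carried AAV and a hairpin, and since U6 is active in most cells the promoter did not limit the hairpin to muscle fibres. The authors describe the AAV, of serotype 1, as having a proven tropism for skeletal muscle cells.

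Small heat shock proteins share an alpha-crystallin domain and hold unfolding proteins in a soluble state without using ATP, so that HSP70 chaperones can refold them or pass them on for degradation. In muscle, BAG3 links HSPB8 to the constitutive HSP70 encoded by *Hspa8*, and together with the ubiquitin ligase CHIP it hands damaged filamin C of the Z-disc to autophagosomes, a route called chaperone-assisted selective autophagy. Mutations of *BAG3* and *CRYAB* are known causes of myofibrillar myopathy in patients.

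The table held 1 average and 1 standard deviation (SD) per group on the log2 scale, and no values of single arrays, so values are given as group average ± SD over 4 arrays. These averages ran from 3.18 to 19.93 over all probe sets, the median SD was 0.27 in each group and the median difference between the groups was -0.01. *D230025D16Rik* averaged 7.71 ± 0.66 in MYTHO-KD and 10.02 ± 0.37 in scramble, leaving 20.2% of the scramble signal (adjusted p = 0.0138, limma). The fast fibre marker *Myh4*, and *Acta1*, the actin gene of slow and fast fibres alike, averaged 19.93 in either group, the top of the scale. The gastrocnemius is a largely fast muscle.

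In MYTHO-KD muscles, *Hspb7*, *Hspb1* and *Bag3* averaged 3.14-, 2.36- and 2.04-fold the scramble signal, and *Cryab* averaged 1.83-fold. The constitutive HSP70 gene *Hspa8*, at 0.959-fold, had the only average of the 10 that was lower in MYTHO-KD. The study's limits for a called gene were a 2-fold difference and an unadjusted p under 0.05. *Hspb7*, *Hspb1* and *Bag3* met them, so that 3 of 10 genes were called higher and 0 lower, where 0.86% of all probe sets were called higher and 0.257% lower. *Cryab* had a p under 0.05 but fell short of 2-fold, and the other 6 genes had a p above 0.05. With p-values corrected for the whole table (Benjamini-Hochberg on limma's moderated test), 0 of the 10 stayed under 0.05 and 4 did without correction, where 0.18% of all probe sets passed the corrected limit as higher and 0.0946% as lower, and 6.48% and 5.52% the uncorrected one. At a smaller limit of 1.5-fold with an unadjusted p under 0.05, *Cryab* joined the others for 4 of 10 higher and 0 lower, against 3.54% and 2.25% of all probe sets. By the side of 0 alone, 9 averages were higher and 1 lower, against 46.9% and 51.4%. The median difference over the 10 genes was 0.42 on the log2 scale, beside -0.01 over all probe sets. In bulk muscle RNA, a different share of cells of a type and a different amount of RNA per cell cannot be told apart.

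**Figure D1:**
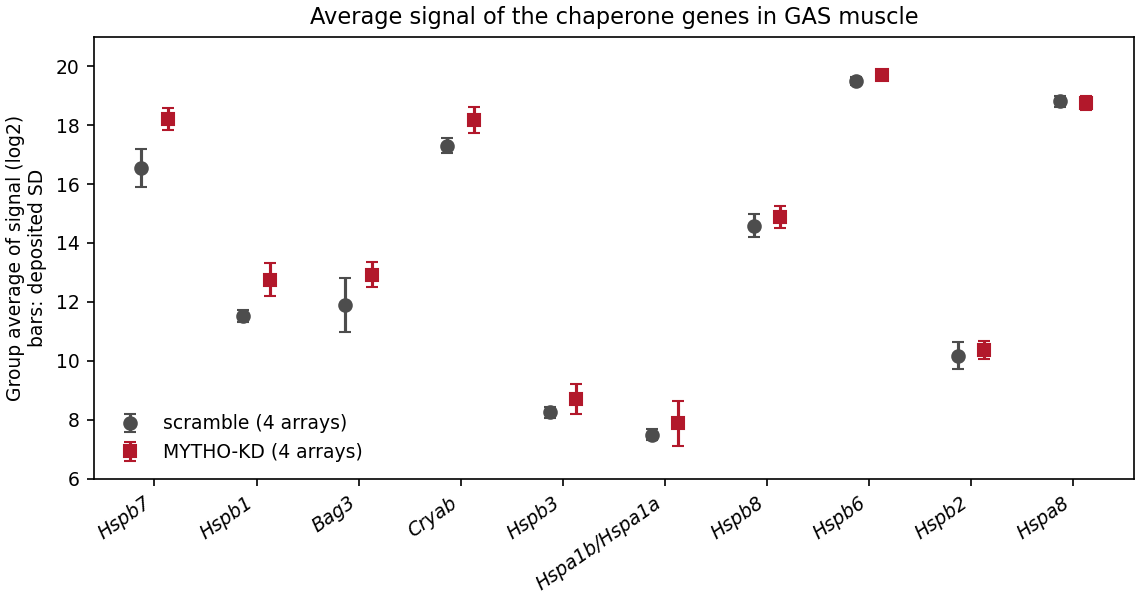
Average signal (log2, y axis) of the 10 chaperone genes in scramble (grey circles) and MYTHO-KD (red squares), with the deposited SD of 4 arrays as bars. The groups stand clearly apart for *Hspb7*, from 16.55 to 18.20, and *Hspb1*, from 11.52 to 12.76, and lie on each other for *Hspa8*, at 18.81 and 18.75.

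*Hspb7* encodes a small heat shock protein of heart and skeletal muscle that binds filamin C. Its probe set covers chromosome 4 from 141420779 to 141425311 (mm10, plus strand). The average was 16.55 ± 0.65 in scramble and 18.20 ± 0.38 in MYTHO-KD. The log2 difference was 1.65 (standard error 0.303, 95% confidence interval 0.99 to 2.31, adjusted p = 0.0528, limma), which put it at rank 44 of all probe sets by the size of a positive difference and at rank 65 by p. The ranges of 1 SD around its averages did not overlap and lay 0.62 apart.

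*Hspb1* encodes the small heat shock protein called HSP25 in the mouse, which guards actin filaments under stress, and it lies on chromosome 5 from 135887919 to 135889563 (plus strand). Its average was 11.52 ± 0.19 in scramble and 12.76 ± 0.57 in MYTHO-KD. The log2 difference was 1.24 (standard error 0.256, interval 0.68 to 1.80, adjusted p = 0.0757, limma), at rank 95 by difference. Here too the ranges of 1 SD lay apart, by 0.48, and the MYTHO-KD arrays had the wider SD.

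*Bag3*, the co-chaperone that joins small heat shock proteins to HSP70, lies on chromosome 7 from 128523583 to 128546981 (plus strand). Its average was 11.89 ± 0.92 in scramble and 12.92 ± 0.42 in MYTHO-KD, so its scramble SD was the largest of all SDs of the 10 genes. The log2 difference of 1.03 (standard error 0.387, interval 0.19 to 1.87, adjusted p = 0.320, limma) passed the 2-fold limit narrowly, at rank 173 by difference but only at rank 1443 by p. The ranges of 1 SD overlapped. Without moderation of the variances, and with unequal variances, its unadjusted p was above 0.05, so the call of *Bag3* was lost in either setting.

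Heat shock factor 1, the factor that induces heat shock genes, binds repeats of the unit GAA in alternating orientation, of which a pair gives the motifs GAANNTTC or TTCNNGAA. To show what lies ahead of the 3 called genes, the 250 bases before their RefSeq start sites are printed (GRCm38.p6, plus strand, 5′ to 3′), with each match to these motifs in capitals. The *Hspb1* stretch is chr5:135887669-135887918, the *Hspb7* stretch is chr4:141420529-141420778 and the *Bag3* stretch is chr7:128523333-128523582.
Hspb1: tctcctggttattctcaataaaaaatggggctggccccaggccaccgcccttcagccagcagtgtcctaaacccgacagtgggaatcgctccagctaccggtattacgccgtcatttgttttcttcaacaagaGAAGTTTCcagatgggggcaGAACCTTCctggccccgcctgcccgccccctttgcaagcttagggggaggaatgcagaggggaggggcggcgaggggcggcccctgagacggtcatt
Hspb7: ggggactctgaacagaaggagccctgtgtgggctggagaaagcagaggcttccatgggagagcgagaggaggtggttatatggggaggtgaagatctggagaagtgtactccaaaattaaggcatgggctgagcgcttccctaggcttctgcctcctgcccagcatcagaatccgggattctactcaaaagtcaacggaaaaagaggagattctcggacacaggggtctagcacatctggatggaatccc
Bag3: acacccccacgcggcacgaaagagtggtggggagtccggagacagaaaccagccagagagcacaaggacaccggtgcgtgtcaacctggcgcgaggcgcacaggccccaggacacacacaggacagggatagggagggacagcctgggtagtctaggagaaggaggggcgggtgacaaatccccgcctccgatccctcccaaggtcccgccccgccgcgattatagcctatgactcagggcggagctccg

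The *Hspb1* stretch held 2 matches, GAAGTTTC starting 117 bases and GAACCTTC starting 97 bases before the start site, which do not overlap. The *Hspb7* and *Bag3* stretches held 0, which says only that these letters are not in this window. The RefSeq table held promoters for 7 of the 10 genes, 8 promoters in all, and 4 of the 8 had a match, those of *Hspb1*, *Hspb3* and *Hspa1b* and the downstream one of *Hspb6*. *Cryab*, *Hspb2* and *Hspa8* had no promoter there and were not searched. Among all 32851 promoters, 12.8% had a match in the same window. Both motifs read the same on either strand. Extended by a further unit, NNGAA after GAANNTTC or NNTTC after TTCNNGAA, which are reverse complements of each other, the motif was in 0 of the 8 promoters and in 0.466% of all. The called *Hspb1* and the uncalled *Hspb3* and *Hspa1b* were therefore alike in having a match, and binding of the factor was not measured here.

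*Cryab* encodes alpha-B-crystallin, which binds desmin and titin in striated muscle. Its average was 17.30 ± 0.26 in scramble and 18.17 ± 0.45 in MYTHO-KD, with a log2 difference of 0.87 (standard error 0.233, interval 0.36 to 1.38, adjusted p = 0.154, limma). Its ranges of 1 SD lay 0.16 apart, a narrower gap than for *Hspb7* and *Hspb1*. The annotated span of its probe set, chromosome 9 from 50751325 to 50756635 on the plus strand, overlaps that of *Hspb2*, from 50751072 to 50752354 on the minus strand, over 1030 bases. *Hspb2* itself, whose product binds the myotonic dystrophy kinase, averaged 10.18 ± 0.45 in scramble and 10.36 ± 0.31 in MYTHO-KD, a log2 difference of 0.18 (interval -0.34 to 0.70, adjusted p = 0.835, limma).

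*Hspb3*, whose product forms complexes with that of *Hspb2* in muscle (chromosome 13 from 113662896 to 113663676), averaged 8.25 ± 0.18 in scramble and 8.71 ± 0.52 in MYTHO-KD. Its log2 difference was 0.46 (interval -0.07 to 0.99, adjusted p = 0.481, limma). *Hspb8*, the partner of *Bag3* (chromosome 5 from 116408491 to 116422864), averaged 14.59 ± 0.39 and 14.89 ± 0.37, a difference of 0.30 (interval -0.22 to 0.82, adjusted p = 0.683, limma). For these genes the ranges of 1 SD overlapped. *Hspb6* (chromosome 7 from 30552178 to 30555443) encodes HSP20, a target of protein kinase A. Its averages of 19.49 ± 0.14 in scramble and 19.71 ± 0.06 in MYTHO-KD were close to the ceiling of 19.93, which 38 probe sets came near with averages above 19, so that an increase may not show fully. Its difference was 0.22 (interval -0.11 to 0.55, adjusted p = 0.62, limma), and its ranges of 1 SD were 0.02 apart. In all, 4 of the 10 genes (*Hspb7*, *Hspb1*, *Cryab* and *Hspb6*) had ranges of 1 SD that lay apart with MYTHO-KD higher, where 4.03% of all probe sets did, and 0 with MYTHO-KD lower, where 3.96% did. The unadjusted p of *Hspb6* was under 0.05 without moderation, with a trend in the prior and with unequal variances, still short of 2-fold. Near the ceiling an SD may be narrowed as well, since *Acta1* and *Myh4*, at 19.93, had SDs of 0.0 in either group. Whether this set the gap and the p of *Hspb6* was not tested.

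Neither HSP70 gene passed the test. *Hspa8*, the constitutive cytosolic HSP70 (chromosome 9 from 40800984 to 40805200), averaged 18.81 ± 0.19 in scramble and 18.75 ± 0.25 in MYTHO-KD, a log2 difference of -0.06 (interval -0.45 to 0.33, adjusted p = 0.945, limma). The heat-inducible *Hspa1b* (chromosome 17 from 34956429 to 34959422) is measured by a probe set that also names its near-identical neighbour *Hspa1a*, and the signal cannot be split between them. It averaged 7.50 ± 0.20 in scramble and 7.88 ± 0.76 in MYTHO-KD, a difference of 0.38 (interval -0.30 to 1.06, adjusted p = 0.699, limma), and most of the spread was in MYTHO-KD. The probe set that names *Hspa1a* alone, added after its value was seen, averaged 7.45 ± 0.44 and 7.67 ± 0.86, a difference of 0.22 (interval -0.59 to 1.03, adjusted p = 0.88, limma). As folds, the 95% intervals of 4 genes stayed inside 2-fold in either direction, with upper bounds of 1.26 for *Hspa8*, 1.63 for *Hspb2*, 1.76 for *Hspb8* and 1.98 for *Hspb3*, while that of *Hspa1b* reached 2.09. The interval of *Hspb6* is not read this way, since the ceiling of 19.93 leaves less than 2-fold above its scramble average of 19.49 and so sets how far it could rise. A difference of 2-fold in *Hspa1b* could thus not be told from none with these arrays. Whether any of the 10 genes moved more than another was not tested, because that needs values of single arrays.

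**Figure D2:**
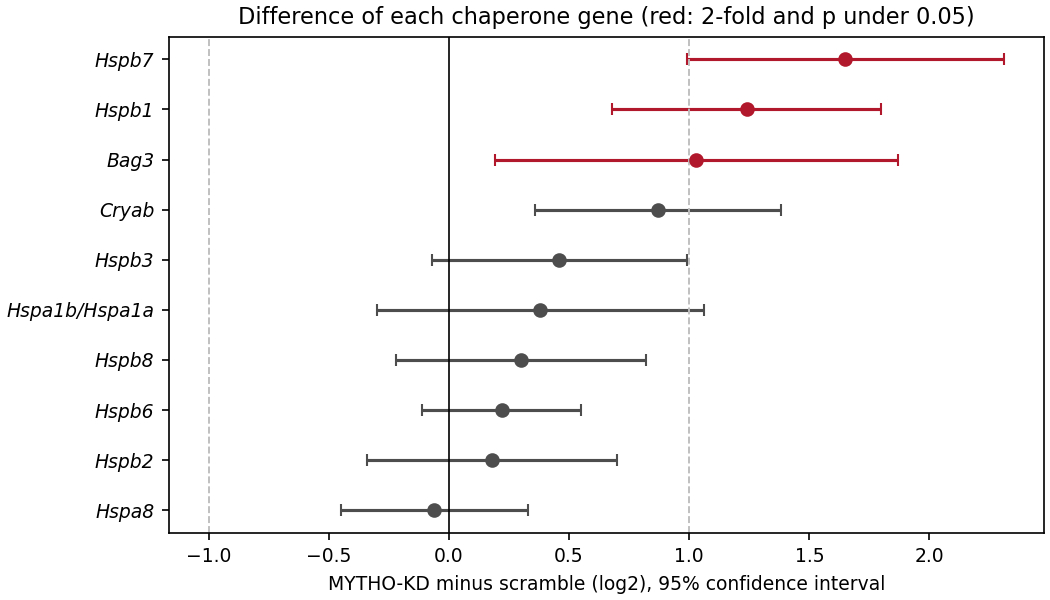
Log2 difference of MYTHO-KD minus scramble for each gene (points) with its 95% confidence interval from limma's moderated test (bars), genes called at 2-fold and unadjusted p under 0.05 in red, dashed lines at 2-fold. The interval of *Hspb7* runs from 0.99 to 2.31 and that of *Bag3* from 0.19 to 1.87, and 6 intervals include 0.

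**Figure D3:**
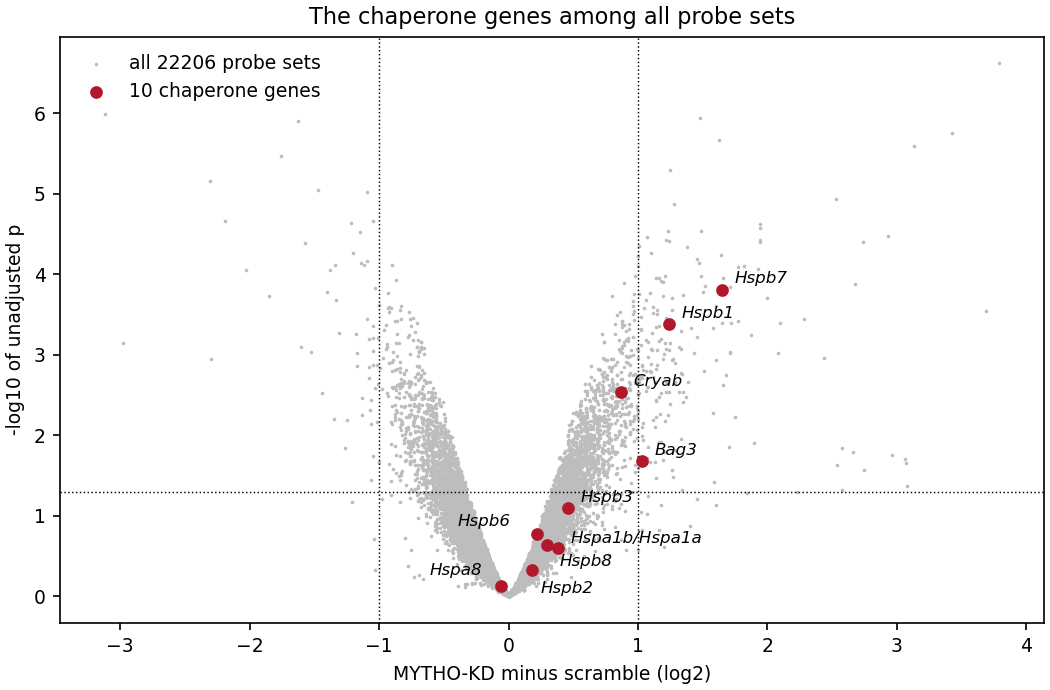
Log2 difference (x axis) against the unadjusted p on the -log10 scale (y axis) for all 22206 probe sets (grey) and the 10 chaperone genes (red), with dotted lines at 2-fold and at a p of 0.05. *Hspb7* (1.65) and *Hspb1* (1.24) lie outside the dense cloud, among scattered probe sets on the higher side, *Bag3* (1.03) just past the 2-fold line, and *Hspa8* (-0.06) at its base.

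Other genes of chaperone function were read from 9 lists with 71 genes on probe sets of their own. The list of BAG3 partners and clients also held genes that do not encode chaperones, such as *Flnc* and *Des*. Of the 71 genes, 1 was called higher and 0 lower at 2-fold, where 0.86% of all probe sets were called higher and 0.257% lower. At an unadjusted p under 0.05 whatever the fold, 10 were higher and 5 lower, against 6.48% and 5.52% of all probe sets. The median difference of the 71 genes was 0.03. The gene called higher was *Flnc*, which encodes filamin C, a client of BAG3 and binding partner of HSPB7 and not a chaperone. Outside the list of BAG3 partners and clients, no gene was called. *Flnc* averaged 9.80 ± 0.38 in scramble and 10.94 ± 0.38 in MYTHO-KD, a log2 difference of 1.14 (standard error 0.238, interval 0.62 to 1.66, adjusted p = 0.0776, limma).

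Among the 12 partners and clients of BAG3 in chaperone-assisted selective autophagy, 3 had a p under 0.05, all higher. Beside *Flnc* these were *Amotl1*, an angiomotin-like protein (0.45, adjusted p = 0.303, limma), and *Dynll1*, a dynein light chain (0.46, adjusted p = 0.413, limma). The median of the list was 0.185. The ligase gene *Stub1* (0.14), the autophagy receptor gene *Sqstm1* (-0.08), the adaptor gene *Synpo2* (0.23) and the desmin gene *Des* (0.14) did not pass, and were named here for their roles.

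Of the 10 other HSP70 and HSP110 genes, 3 had a p under 0.05, all higher, and the median was 0.26. *Hsph1*, which encodes HSP110, an exchange factor of HSP70, averaged 10.85 ± 0.09 and 11.51 ± 0.24, a difference of 0.66 (adjusted p = 0.143, limma). *Hspa12a* differed by 0.63 and *Hspa14* by 0.42. The signal of *Hspa12a* was dim, at 4.57 ± 0.25 in scramble and 5.20 ± 0.43 in MYTHO-KD. Both averages lay under 5.715, the log2 limit used to filter dim probe sets. Of the 13 J-domain partners that drive the ATPase of HSP70, 3 had a p under 0.05 on the higher side, *Dnajb1* (0.88, adjusted p = 0.33, limma), *Dnajb4* (0.72, adjusted p = 0.325, limma) and *Dnaja4* (0.71, adjusted p = 0.227, limma), and *Dnajb5* did so on the lower side (-0.38, adjusted p = 0.408, limma). For *Dnajb4* the SD was 0.02 in scramble and 0.67 in MYTHO-KD, so nearly all spread lay in 1 group. None of the 8 other BAG proteins and HSP70 cofactors had a p under 0.05, and the largest test statistics were those of *St13* (0.35) and *Bag1* (0.30).

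Of the 10 genes of the HSP90 list, 4 averages were higher and 6 lower, with a median of -0.29, and 3 had a p under 0.05, all lower. These were the myosin chaperone gene *Unc45b*, from 11.45 ± 0.39 to 10.83 ± 0.22 (-0.62, adjusted p = 0.268, limma), *Fkbp4*, an HSP90 co-chaperone (-0.42, adjusted p = 0.349, limma), and *Smyd1*, a methyltransferase that works with *Unc45b* in myosin folding (-0.37, adjusted p = 0.398, limma). Neither HSP90 gene had a p under 0.05 (*Hsp90aa1* 0.37, *Hsp90ab1* 0.05). The 8 TRiC/CCT chaperonin genes had a median of -0.18, 7 with a lower average and 0 with a p under 0.05. The largest statistics were those of *Cct4* and *Cct7*, at -0.40 each. *Cct7* was dim as well, with averages of 5.60 in scramble and 5.20 in MYTHO-KD, under the limit of 5.715. Of the 3 mitochondrial chaperones, *Hspd1*, which encodes HSP60, was higher by 0.83 (adjusted p = 0.154, limma), *Trap1*, the mitochondrial HSP90, was lower (-0.57, adjusted p = 0.154, limma), and *Hspe1*, the partner of HSP60, differed by 0.07. The 4 genes of *Hsf1* and its regulators ran from -0.33 to 0.02 with 0 at a p under 0.05, led by *Hsf1* (-0.33) and *Hsf4* (-0.13), and the 3 small heat shock genes outside the 10, typical of lens and testis, ran from -0.49 (*Cryaa*) to 0.23 (*Odf1*) with 0 at a p under 0.05. Of these 3 small heat shock genes, *Hspb9* (3.63 in scramble and 3.44 in MYTHO-KD) and *Odf1* (4.45 and 4.68) were dim, under the limit of 5.715. *Cryaa* (6.15 and 5.66) was close to that limit. None of the 71 genes passed the adjustment over all probe sets.

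**Figure D4:**
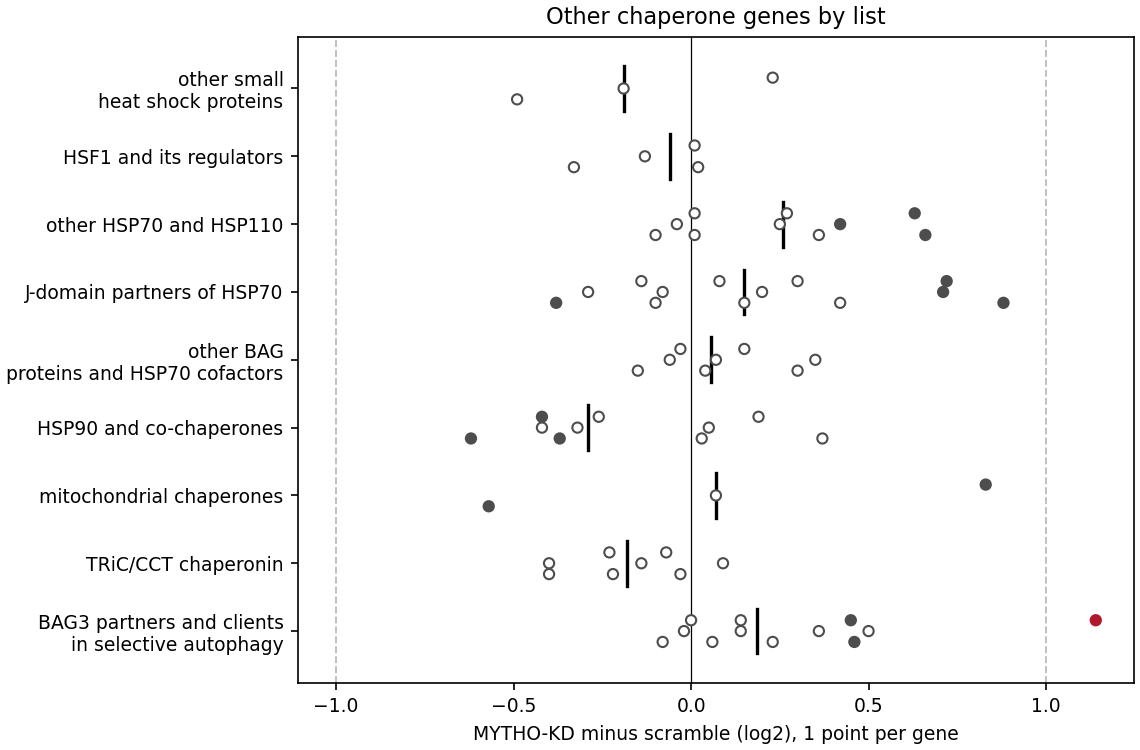
Log2 difference of MYTHO-KD minus scramble (x axis) for the 71 genes of the other lists, by list (y axis), 1 point per gene. The list of BAG3 partners and clients also holds genes that do not encode chaperones. Points are filled where the unadjusted p is under 0.05 and red where 2-fold is also reached. Black bars mark the median of each list and dashed lines mark 2-fold. *Flnc* (1.14) is the only red point, and the medians of the HSP90 (-0.29) and TRiC/CCT (-0.18) lists lie left of 0.

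Some markers of other cells and of tissue handling were called in the same comparison. Of 6 macrophage markers, 3 were called higher, *Cd68* (2.53, adjusted p = 0.0182, limma), *Lyz2* (1.94, adjusted p = 0.0277, limma) and *C1qb* (1.27, adjusted p = 0.0754, limma). *Csf1r* (0.99, adjusted p = 0.249, limma) had an unadjusted p under 0.05 but fell short of 2-fold. *C1qa* (0.66) and *Adgre1* (0.48) had a p above 0.05. The macrophage list had a summed linear signal of 1090 in scramble and 3620 in MYTHO-KD, mostly from *Lyz2* (9.17 and 11.11 on the log2 scale). Such a sum adds the group averages of a list, each first taken off the log2 scale. Of 6 fibroblast markers 2 were called higher, *Lum* (1.49, adjusted p = 0.0443, limma) and *Col3a1* (1.43, adjusted p = 0.102, limma), while the other 4 had a p above 0.05. The summed signal of this list, 102000 in scramble and 128000 in MYTHO-KD, came mostly from *Dcn*, which was not called (16.58 and 16.86, a difference of 0.28, adjusted p = 0.644, limma). Of 7 immediate early genes, which respond to stress and to handling of tissue, *Atf3* (1.46, adjusted p = 0.0888, limma) and *Egr1* (1.34, adjusted p = 0.413, limma) were called higher. *Jun* (0.56, adjusted p = 0.321, limma) had an unadjusted p under 0.05 but fell short of 2-fold. The other 4 had a p above 0.05, among them *Fos* (0.35) and *Fosb* (-0.02). In this list 6 averages were higher and 1 lower, and the summed signal was 1790 and 3140. Of 6 liver markers *Alb* alone was called higher (2.66, SD 2.28 in MYTHO-KD and 1.34 in scramble, adjusted p = 0.291, limma), the other 5 had a p above 0.05, and the summed signal, 543 and 2390, came mostly from *Alb*. The part of these markers in the differences of the chaperone genes was not tested.

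Several small heat shock genes are also expressed in smooth muscle and are richer in slow than in fast fibres. Of 5 smooth muscle markers 0 were called, with differences from -0.15 (*Tagln*) to 0.25 (*Myh11*), *Myh11* and *Smtn* (0.16) having the largest statistics, and a summed signal of 12400 in scramble and 11800 in MYTHO-KD. Of 7 slow fibre markers 0 were called, with differences from -1.03 (*Tnni1*) to 0.54 (*Myl3*). Their SDs were wide, from 0.70 to 1.43 in scramble and from 1.39 to 3.67 in MYTHO-KD. For any of the 10 chaperone genes the SD was at most 0.92. The arrays therefore differed among themselves in slow fibre signal. The summed signal was 69800 and 69900, mostly from *Myl2* (-0.32) and *Atp2a2* (0.48), which differed in opposite directions. With SDs this wide, the sum of group averages cannot show whether slow fibre signal differed. Of 8 genes listed as fast fibre markers 0 were called, though *Acta1* among them is shared with slow fibres. *Myh1*, the myosin of fibre type IIX, was higher by 0.59 (adjusted p = 0.23, limma), *Tnnc2* differed by -0.20, and the other 6 ran from -0.15 to 0.00, with *Acta1* and *Myh4* at the top of the scale. The summed signal of this list, 5180000 and 5100000, came mostly from probe sets at or near that ceiling and cannot show whether fast fibre signal differed. Which arrays carried the slow fibre signal was not tested, and neither was its part in the chaperone differences.

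**Figure D5:**
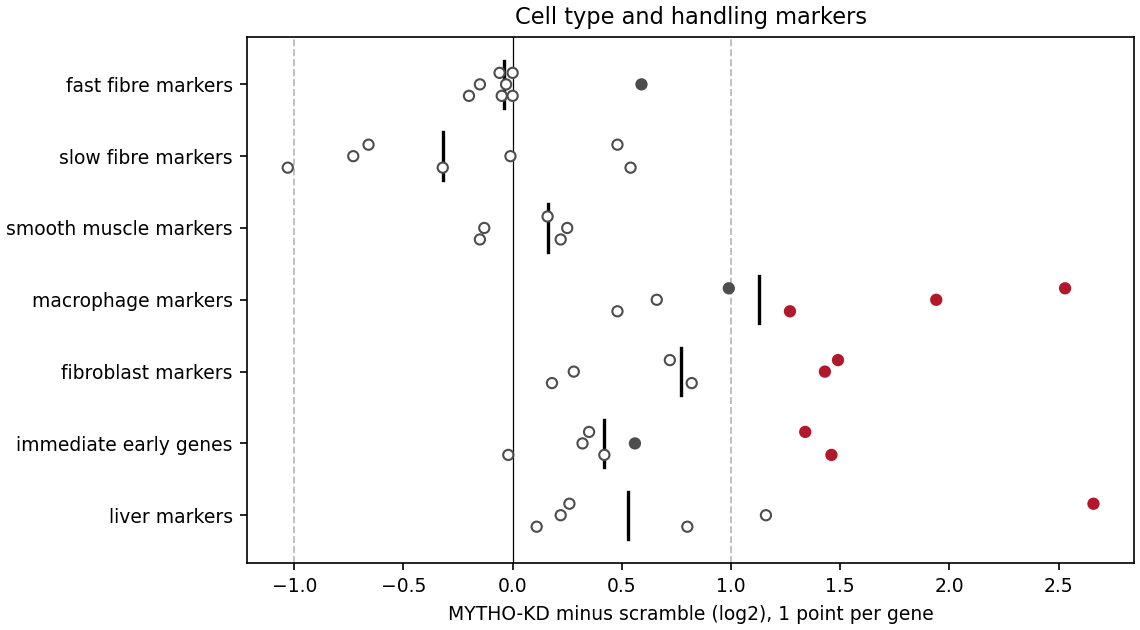
Log2 difference of MYTHO-KD minus scramble for cell type and handling markers (1 point per gene, x axis) by list (y axis), filled where the unadjusted p is under 0.05, red where 2-fold is also reached, with list medians as black bars. Macrophage markers reach 2.53 (*Cd68*), while the smooth muscle markers stay between -0.15 and 0.25.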

How the data were processed

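RNA of 8 GAS muscles was hybridized to Clariom S Mouse arrays, and groups came from the sample titles. Normalization by the authors was SST-RMA, run in the Transcriptome Analysis Console (the labels name RMA and Affymetrix Expression Console), and they deposited a table of 28 columns, annotated on mm10, with 0 columns of single arrays. Its averages and SDs per group are on the log2 scale, and whether they are plain means is not given in the sources used here. If they are not, p-values may be too low. The authors' fold changes and p-values in the table were not used.

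Pooled variances from the deposited SDs, with 6 degrees of freedom, were moderated with squeezeVar of limma 3.58.1 in R 4.3.3 (prior SD 0.284, prior degrees of freedom 5.85), in place of a fit to single arrays, and the script was tested on simulated data. Two-sided p-values were corrected by Benjamini-Hochberg over 22206 probe sets. Calls used the unadjusted p, and the text prints adjusted values. The labels do not say which mouse an array came from, so p-values measure the spread between these muscles. The test was unpaired and took the muscles as independent, although the scramble hairpin went into the opposite leg. A gene was given by its probe set with the highest mean. Hspa1a fell on the probe set of Hspa1b and was left out of its list. In each other list the called genes were named, or else the 2 with the largest test statistic, and other names were added once values were known. The genes and lists were chosen with earlier results of these data known. Alternatives were unmoderated and unequal variances, a robust prior with a trend, filters on dim or unexpressed probe sets, 1 probe set per symbol, centring and other thresholds.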

Additional observations from a re-analysis of the deposited data

How the results depend on the processing

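The log2 differences of the 10 genes moved by 0.01 with centring and by 0 with the other fits and filters, and that of *Hspa1b* was 0.22 in place of 0.38 by the probe set that names *Hspa1a* alone, added after seeing the data. The call of *Bag3* (1.03) was lost without moderation and with unequal variances, where the log2 difference stayed 1.03 and the unadjusted p was above 0.05 (the cause was not tested). *Hspb7* and *Hspb1* kept theirs in every fit run. Of 71 comparisons of a single gene with an alternative, 69 kept the direction and the call by 2-fold and p together. The fits and filters reused the same group averages, so there direction and fold were fixed apart from centring, and only the p could move. The unadjusted p of *Hspb6* alone crossed to under 0.05 in 3 of the comparisons, with no call. At an adjusted p under 0.05, 0 of the 10 genes passed in the fit reported, where 61 of all 22206 probe sets did. With a trend and robust fitting 3 passed (*Cryab*, *Hspb1* and *Hspb7*, with adjusted p of 0.0492, 0.0271 and 0.0299, limma), where 189 probe sets did. Without dim probe sets 1 passed (*Hspb7*, 0.0475, limma), where 78 of 15564 probe sets did. In the other fits 0 of the 10 genes passed. Over its alternatives the adjusted p ran from 0.0299 to 0.429 for *Hspb7* and from 0.0271 to 0.470 for *Hspb1*.

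Thresholds moved the other counts. With an adjusted p under 0.05 in place of 2-fold, 0 of the 10 genes, 0 genes of the other chaperone lists, 40 probe sets higher and 21 lower were called. With an unadjusted p under 0.05 at any fold, 10 genes of those lists, BAG3 partners and clients included, were higher and 5 lower, with 1439 and 1225 probe sets. At 1.5-fold, 7 genes of those lists were higher and 1 lower, with 787 and 500 probe sets. No paired analysis was possible because the table holds group averages, and for the same reason no array could be left out. No gene of the 10 had another probe set.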
